A study of Mus musculus with 2 samples.

Results

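The 9 genes described here encode receptors, ligands and feedback inhibitors of fibroblast growth factor (FGF) signalling, and the data are the places where RUNX2 CUT&Tag peaks lay around them in MC3T3-E1 cells. They are the receptor genes Fgfr1, Fgfr2 and Fgfr3, the ligand genes Fgf2 and Fgf18, and the feedback genes Spry1, Spry2, Spry4 and Dusp6, taken by name from the 21887 protein-coding genes of the RefSeq annotation of the mouse GRCm38 (mm10) genome. A peak was assigned to a gene when it lay inside the annotated gene span or within 100 kb of either end, and a shared region is a place where a peak of replicate 1 overlapped a peak of replicate 2 by at least 1 bp. RUNX2 is a transcription factor that osteoblasts need in order to form. MC3T3-E1 is an established mouse line derived from calvaria and labelled as embryonic osteoblast precursors. In CUT&Tag, an antibody bound to chromatin recruits the transposase Tn5, which cuts and tags the DNA beside it.

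The series holds 1 group with 2 replicate libraries of untreated cells, both made with the RUNX2 antibody. No genotype is stated, no control library is among the samples, and whether the replicates were separate cultures is not stated, so the spread between them may be technical. Replicate 1 has 26853 peaks and replicate 2 has 27287. The lists give positions and widths without heights or read numbers, so depth is unknown, levels of RNA were not measured, and the cell type could not be checked against its marker genes. With a single group there was no contrast to test, and all values below are descriptions.

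FGF ligands bind receptor tyrosine kinases together with heparan sulfate chains, and the receptors signal through adaptor proteins to RAS and the ERK kinases. ERK activity induces Sprouty proteins and the phosphatase DUSP6, which dampen the same pathway. In bone, activating mutations of the human FGFR1, FGFR2 and FGFR3 genes cause premature fusion of skull sutures or dwarfism, and Fgf18 is required in mice for normal growth of the skull bones and of cartilage.

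Dusp6 had its start site under a peak in both replicates and had the most shared regions of the 9 genes within 100 kb, though within 10 kb it had 1 and Fgfr1 and Fgf2 had 2 each. Shared regions were found for 8 of the 9 genes, 32 regions in all, against a background of 77.7% of protein-coding genes with at least 1 region in windows of this kind. Dusp6 had 7, Fgfr1 and Fgfr3 had 6 each, Fgfr2 and Fgf2 had 4 each, Fgf18 and Spry4 had 2 each, and Spry1 had 1. Spry2 had none. The median was 4 regions per gene over the 9 genes and 3 over all protein-coding genes. Each of the 32 regions was made of a single peak from each list.

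**Figure D1:**
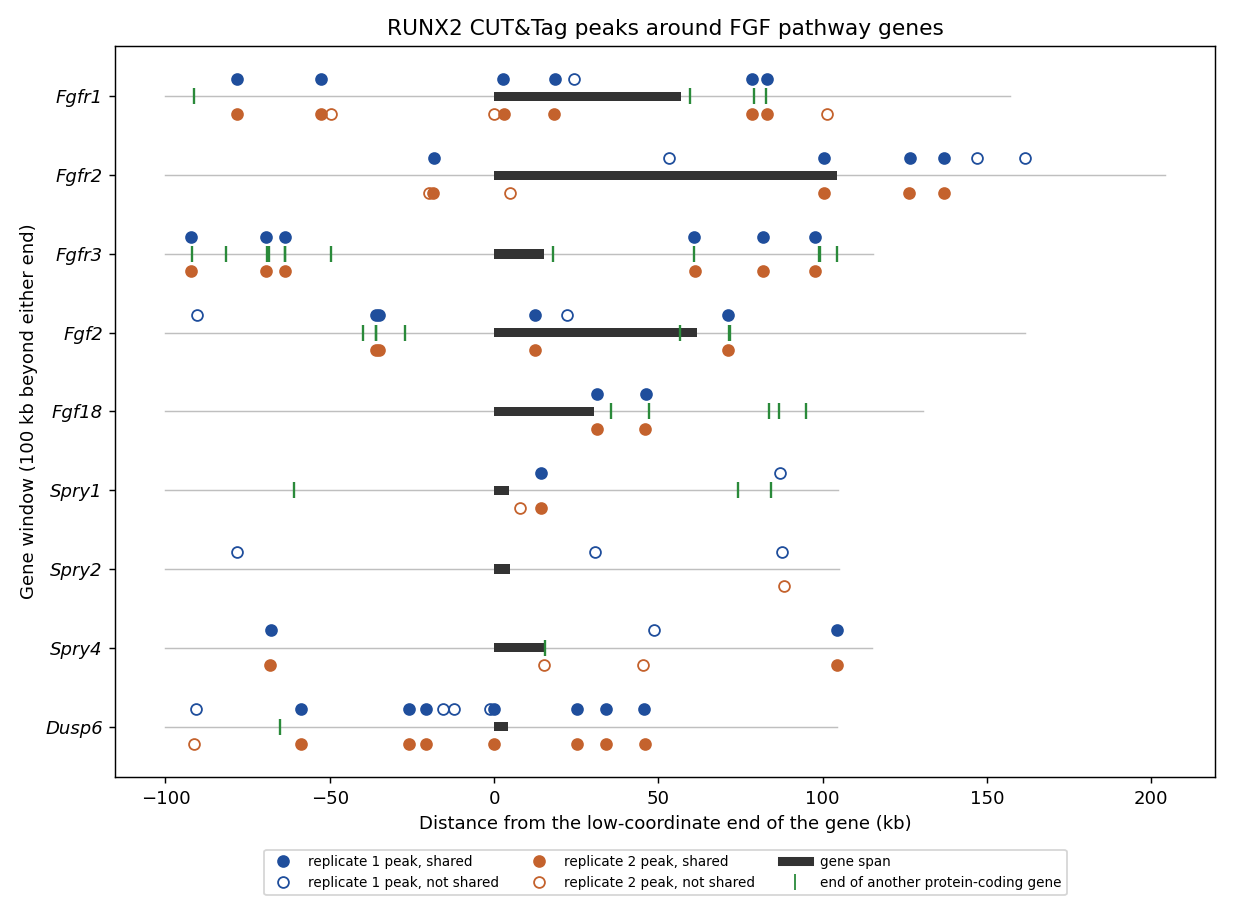
Peaks in the window of each gene, by distance in kb from the low-coordinate end of the gene, with replicate 1 above and replicate 2 below each line. Filled circles are shared peaks, open circles are peaks of a single list, dark bars are gene spans and green ticks are ends of other protein-coding genes. Circles stand at peak centres. Spry2 has no filled circle, and those of Dusp6 mark regions from 58.3 kb before its start site to 45.5 kb after it.

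Annotated start sites from RefSeq (GRCm38.p6) were matched by symbol for 7 of the 9 genes, all but Fgfr1 and Spry4, each with a window of 250 bases before and 50 after the start, which gave 8 windows because Fgfr3 has 2. Of these 8 windows, that of Dusp6 was overlapped by a shared region, beside 31% of the promoter windows of protein-coding genes. The window of Dusp6 is shown because both peaks cover it, that of Fgf18 because its nearest shared region lay just upstream, and that of Fgf2 because it held a motif that was searched. The motifs were the RUNX cores TGTGGT and TGCGGT and the AP-1 motif TGANTCA, each on both strands, and matches are in capitals.
Dusp6 (chr10:99262981-99263280, + strand): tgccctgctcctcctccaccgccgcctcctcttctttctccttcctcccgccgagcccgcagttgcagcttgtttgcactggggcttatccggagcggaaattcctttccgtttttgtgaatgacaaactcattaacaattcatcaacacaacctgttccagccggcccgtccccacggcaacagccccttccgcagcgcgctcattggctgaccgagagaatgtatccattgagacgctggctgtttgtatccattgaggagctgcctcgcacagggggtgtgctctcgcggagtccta
Fgf18 (chr11:33147351-33147650, - strand): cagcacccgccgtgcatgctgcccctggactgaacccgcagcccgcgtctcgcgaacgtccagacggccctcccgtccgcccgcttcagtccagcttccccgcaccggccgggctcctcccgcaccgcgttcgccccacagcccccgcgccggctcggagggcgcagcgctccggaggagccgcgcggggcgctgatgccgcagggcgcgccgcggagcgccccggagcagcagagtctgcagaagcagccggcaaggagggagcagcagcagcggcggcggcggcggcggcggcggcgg
Fgf2 (chr3:37348403-37348702, + strand): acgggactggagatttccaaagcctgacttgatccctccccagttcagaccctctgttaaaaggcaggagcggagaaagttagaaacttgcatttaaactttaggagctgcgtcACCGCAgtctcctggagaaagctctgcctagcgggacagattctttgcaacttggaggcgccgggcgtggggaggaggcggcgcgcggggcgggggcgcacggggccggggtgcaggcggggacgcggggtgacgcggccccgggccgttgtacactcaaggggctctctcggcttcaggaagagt

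The 8 windows held a single match to these motifs. It was ACCGCA in Fgf2, which is TGCGGT read on the other strand, and it began at position -136 relative to the start site. No peak of either list covered the Fgf2 window. The Dusp6 and Fgf18 windows, and those of Fgfr2, Fgfr3, Spry1 and Spry2, held none of the letters searched. Over the 21263 promoter windows of protein-coding genes, 15.0% held TGTGGT, 7.4% held TGCGGT and 7.0% held TGANTCA. Over all 32851 promoter windows, noncoding genes included, the shares were 16.8%, 6.45% and 7.81%. A match in letters is not a measured binding site, and regions away from start sites were not searched.

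The receptor genes differed in where their regions lay. Fgfr1 encodes a receptor found throughout the osteoblast lineage, and its gene spans chromosome 8 from 25518759 to 25575718. It had 7 peaks in replicate 1 and 9 in replicate 2, of which 6 in each list were shared. A shared region inside the gene, from 25521269 to 25521989, began 2510 bp from the low end and was 721 bp wide in replicate 1 and 298 bp wide in replicate 2. A second, from 25536720 to 25537605, lay 17961 bp from the low end with peaks of 713 and 771 bp. Both also lay inside the noncoding gene Gm31288, which overlaps Fgfr1. Replicate 2 alone had a peak of 252 bp across the low end itself, from 25518656 to 25518907, and the nearest replicate 1 peak was 2361 bp away.

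The other 4 shared regions of Fgfr1 lay outside the gene. Below the low end, a region at 52.3 kb lay inside the noncoding gene Gm31045 with peaks of 824 and 785 bp, and a region at 77.8 kb lay inside Gm30978 with peaks of 713 and 288 bp. Above the high end, the regions at 21.2 and 25.7 kb lay within 1 kb of the ends of Letm2 and Nsd3. Letm2 encodes a mitochondrial inner membrane protein, and Nsd3 a histone methyltransferase. Thus 2 of the 6 regions were at an end of another protein-coding gene, and 4 were over 1 kb from any such end. By the nearest protein-coding gene end, the regions at 52.3 and 77.8 kb belonged to Gm39147, 38234 and 12857 bp away. Only the regions inside the gene belonged to Fgfr1.

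Fgfr2, whose human counterpart is mutated in several craniosynostosis syndromes, lies on chromosome 7 from 130162451 to 130266808 on the minus strand. It had 7 peaks in replicate 1 and 6 in replicate 2, and 4 shared regions. No other protein-coding gene lay in its window, so that all 4 regions had Fgfr2 as their nearest one. A region from 130262709 to 130263173 lay inside the gene, 3635 bp after the start site, with peaks of 465 bp in replicate 1 and 336 bp in replicate 2. Upstream, 21.6 kb before the start site, a region from 130288442 to 130289484 had peaks of 896 and 776 bp. Another, 32.3 kb upstream from 130299125 to 130299816, had peaks of 454 and 692 bp. Both upstream regions lay inside the noncoding gene Gm33555.

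The fourth Fgfr2 region, 18.2 kb beyond the far end of the gene, rested on a small overlap. Its peaks were 166 bp in replicate 1 and 490 bp in replicate 2 and had 72 bp in common. Peaks of a single list lay inside Fgfr2 as well, 388 bp wide in replicate 1 and 190 bp wide in replicate 2, at different places.

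Fgfr3, the receptor that restrains cartilage growth, lies on chromosome 5 from 33721724 to 33737068 on the plus strand. It had 6 peaks in each list and all of them were shared, yet none lay inside the gene or within 45.2 kb of it. Its window holds 7 other protein-coding genes, and 4 of the 6 regions were at their ends. These were at Fam53a with peaks of 1019 and 1033 bp, at the facing ends of Slbp and Tmem129 with peaks of 959 and 885 bp, at those of Tmem129 and Tacc3 with peaks of 958 and 1031 bp, and at Letm1 with peaks of 750 and 729 bp. Slbp encodes the histone stem-loop binding protein, and Tacc3 a protein of the mitotic spindle. The remaining 2 regions lay 66.2 and 82.1 kb above the high end, the second of them 1041 bp from the histone methyltransferase gene Nsd2. By the nearest protein-coding gene end, no region of this window belonged to Fgfr3.

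The ligand gene Fgf2 encodes basic FGF, which osteoblasts deposit in bone matrix, and lies on chromosome 3 from 37348477 to 37410106 on the plus strand. It had 6 peaks in replicate 1 and 4 in replicate 2, with 4 shared regions. The region from 37360615 to 37361312 lay inside the gene, 12.0 kb after the start site, with peaks of 426 bp in replicate 1 and 698 bp in replicate 2. The other 3 were at ends of neighbouring genes. The widest, from 37419288 to 37420320, had peaks of 992 and 1033 bp and lay within 1 kb of ends of Nudt6 and Spata5. Nudt6 overlaps the high end of Fgf2 and is known as the gene of the FGF2 antisense transcript. The 2 others were at Cetn4 and Bbs12, 35.7 and 34.5 kb below the low end. Their peaks were 591 and 756 bp wide in replicate 1 and narrower in replicate 2, at 313 and 371 bp.

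Fgf18, the ligand required for skull bone growth in mice, lies on chromosome 11 from 33116970 to 33147400 on the minus strand. Each list had 2 peaks in its window, and both pairs were shared. The first region, from 33148261 to 33148632, lay 861 bp upstream of the start site. It was narrow, at 241 bp in replicate 1 and 372 bp in replicate 2, which exceeded 10.8% and 30.0% of the peaks of all shared regions in the same list. The second, 14.9 kb upstream, had peaks of 470 and 964 bp and lay within 1 kb of the end of Npm1, which encodes the nucleolar protein nucleophosmin. No peak of either list lay inside Fgf18.

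The feedback genes ranged from the most regions to none. Dusp6, which encodes a phosphatase that inactivates ERK, is a gene of 4259 bp on chromosome 10 from 99263231 to 99267489 on the plus strand. It had 11 peaks in replicate 1 and 8 in replicate 2, and 7 shared regions. The region over the start site, from 99262732 to 99263631, had peaks of 836 bp in replicate 1 and 878 bp in replicate 2, with 814 bp in common. Upstream regions lay at 20.6, 25.5 and 58.3 kb from the start site, with peaks of 230, 577 and 576 bp in replicate 1 and of 239, 720 and 714 bp in replicate 2. The region at 25.5 kb lay inside the noncoding gene Gm34777.

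Downstream of Dusp6, 3 shared regions lay at 24.6, 33.4 and 45.5 kb from the start site. The middle region, from 99296647 to 99298138, was the widest of all 32, with 1399 bp in replicate 1 and 1392 bp in replicate 2. These widths exceeded 99.4% and 99.3% of those of all shared regions. The region at 24.6 kb had peaks of 1024 and 771 bp, and that at 45.5 kb had peaks of 540 and 754 bp. No protein-coding gene other than Dusp6 and Poc1b lay in the window, and 6 of the 7 regions were nearest to Dusp6. The exception was the region 58.3 kb upstream, which lay 6101 bp from Poc1b, the gene of a centriole protein.

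**Figure D2:**
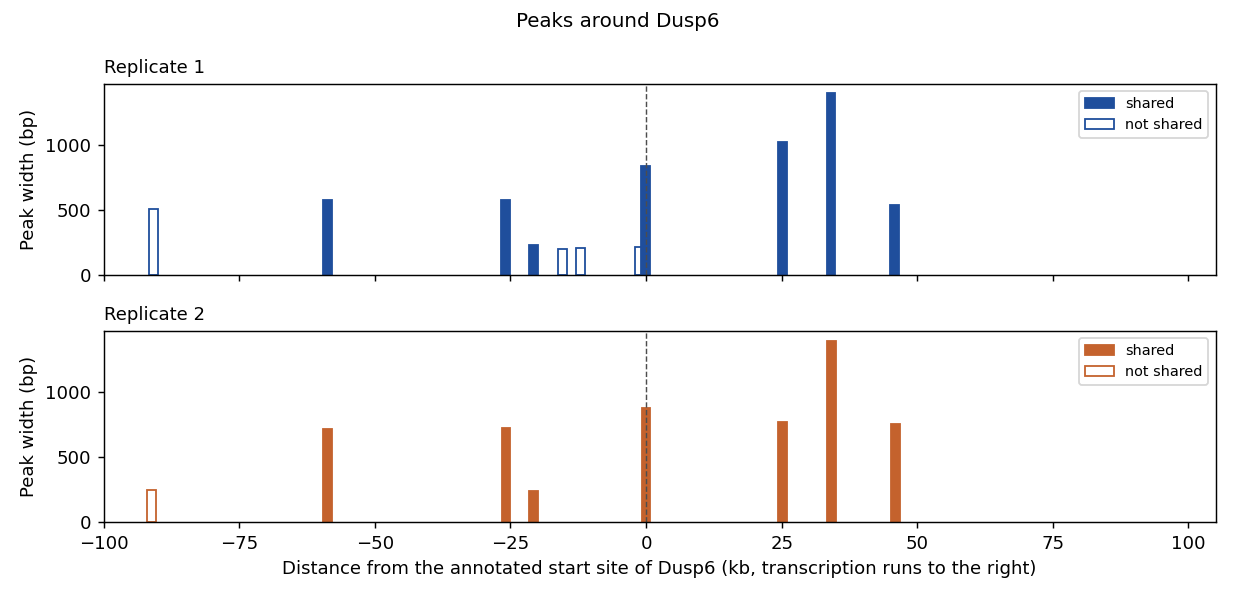
Peaks in the Dusp6 window, with distance from the annotated start site in kb on the horizontal axis and peak width in bp as bar height, replicate 1 above replicate 2. Filled bars are shared and open bars belong to a single list. Bars stand at peak centres. The tallest bar in both panels is the region that begins 33.4 kb after the start site, with 1399 bp in replicate 1 and 1392 bp in replicate 2.

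Set beside all protein-coding genes, 14.8% had 7 or more shared regions in such a window. Counting only regions over 1 kb from the end of every protein-coding gene, Dusp6 had 6, and 4.57% of protein-coding genes had 6 or more. Fgfr1 and Fgfr2 had 4 each on this count, which 13.9% of protein-coding genes reached, though the regions below the low end of Fgfr1 were nearer to Gm39147. Fgfr3 and Spry4 had 2, Fgf2 and Spry1 had 1, and Fgf18 and Spry2 had none. In all, 7 of the 9 genes had such a region, beside 61.4% of protein-coding genes. Per 100 kb of window, which allows for gene length, Dusp6 had 3.43 regions and Fgfr3 2.79, and the median of all protein-coding genes was 1.14. These 2 densities were reached by 8.2% and 15.7% of protein-coding genes. The median of the 9 genes was 1.31, and Fgf18, Spry1, Spry2 and Spry4 lay below 1.14. Neighbouring genes share windows, so these shares are not counts of independent places. Dusp6 was singled out as the highest of the 9 genes, so its shares do not show that it is unusual.

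**Figure D3:**
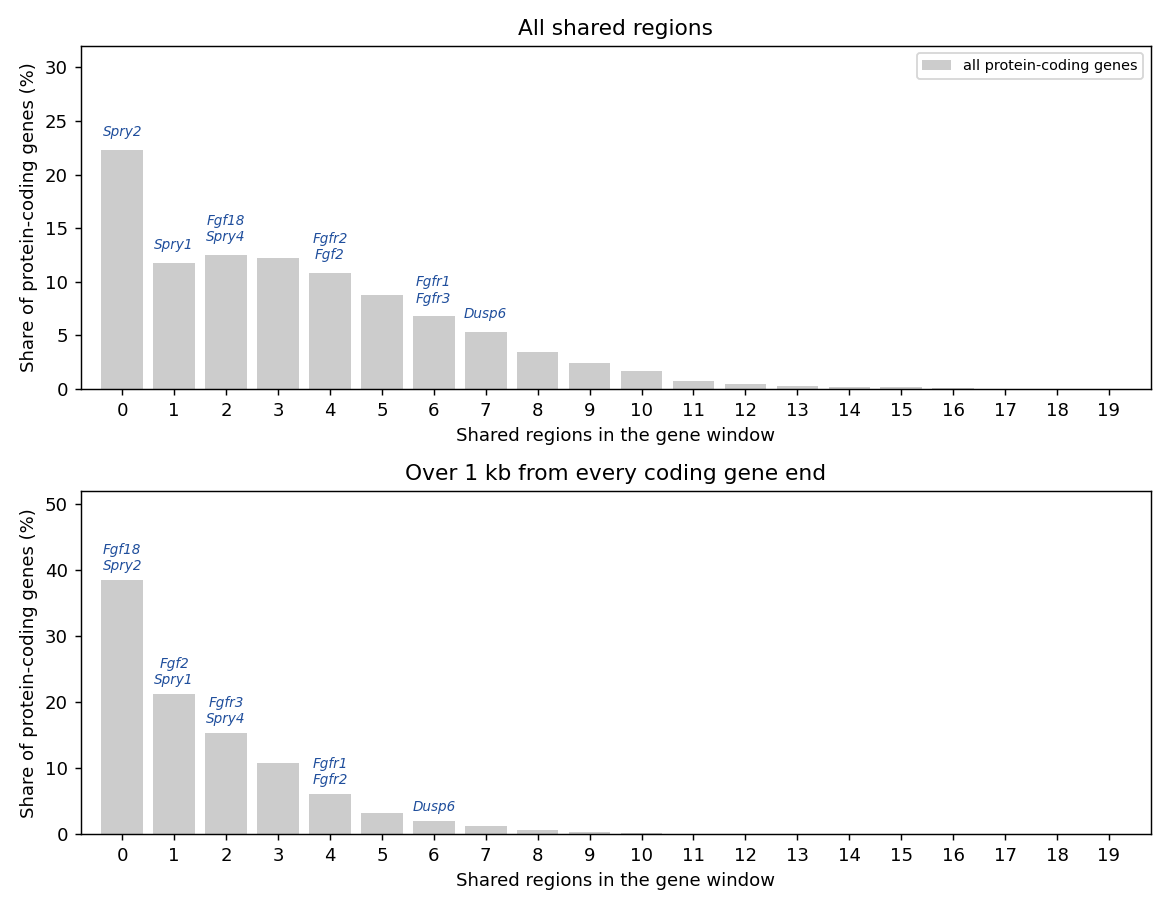
Share of all protein-coding genes (grey bars, percent) by the number of shared regions in their window, for all shared regions (top) and for those over 1 kb from every protein-coding gene end (bottom). Names stand above the bar of each gene's own number. Dusp6 stands furthest to the right in both panels, at 7 and 6 regions.

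The products of the Sprouty genes inhibit receptor tyrosine kinase signalling upstream of ERK. These genes had 2 shared regions or fewer, and 65.9% of protein-coding genes had 2 or more. Counting only regions over 1 kb from every protein-coding gene end, 40.1% reached the 2 of Spry4 and 61.4% the 1 of Spry1. Spry1 (chromosome 3, 37639947 to 37644599, plus strand) had 2 peaks in each list and 1 shared region, from 37653861 to 37654451. It lay 9262 bp beyond the high end, inside the noncoding gene Gm46799, with peaks of 307 bp in replicate 1 and 591 bp in replicate 2. A peak of 174 bp in replicate 2 alone lay 3058 bp beyond the same end.

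Spry2 (chromosome 14, 105891947 to 105896819, minus strand) had 3 peaks in replicate 1 and 1 in replicate 2, and none overlapped. The closest pair lay 82.8 and 83.2 kb from the gene, 290 bp wide in replicate 1 and 357 bp wide in replicate 2, with 146 bases between them. Its nearest shared region was 156.1 kb away, whereas the median over protein-coding genes was 11.1 kb. No other protein-coding gene lay within 100 kb of Spry2.

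Spry4 (chromosome 18, 38586247 to 38601347) had 3 peaks in replicate 1 and 4 in replicate 2, and 2 shared regions. They lay far from the gene. One was 67.7 kb below the low end with peaks of 606 and 612 bp. The other was 88.9 kb above the high end, inside the neighbouring gene Arhgap26, with peaks of 504 and 392 bp. By the nearest protein-coding gene end they belonged to Ndfip1 and Gm19774, 52512 and 23448 bp away, and no region belonged to Spry4. In replicate 2 alone, a peak of 201 bp from 38601322 to 38601522 covered the high end of Spry4 and came within 1 kb of Arhgap26. Replicate 1 had no peak within 33.4 kb of that end, and the list does not show whether signal below the calling limit was present.

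Regions were also counted at and near the genes themselves. Of the 9 genes, 2 had a shared region within 1 kb of an end, Dusp6 and Fgf18, beside 33.3% of protein-coding genes. With the peaks of replicate 2 alone the count was 4, Fgfr1 and Spry4 being added, and with those of replicate 1 alone it was 2. Counted from the first annotated start site of each gene, these were the same 2 genes of the 7 that have one, beside 34.1% of 17492 protein-coding genes. Within 10 kb of an end or inside the gene, 6 of 9 had a region, beside 52.8%, the exceptions being Fgfr3, Spry2 and Spry4. Inside the gene span, 4 of 9 had a region, beside 41.4%. These were Fgfr1 with 2 and Fgfr2, Fgf2 and Dusp6 with 1 each. None of these shares was tested, and with 9 genes a single gene moves them far. Of the 32 regions, 12 (37.5%) were within 1 kb of some protein-coding gene end, 10 of them at a gene other than these 9, and the share over all shared regions was 34.7%.

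Most peaks in the 9 windows were found in both lists. Of the 47 peaks of replicate 1 in the 9 windows, 32 were shared (68.1%, 95% Wilson interval 53.8 to 79.6), and over the whole list 68.2% were. Of the 42 peaks of replicate 2, 32 were shared (76.2%, 61.5 to 86.5), and over the whole list 67.2% were. Both intervals hold the share of the whole list, but they treat peaks as independent and cover counting error only. The 32 shared peaks of the 2 lists are partners of each other, so the 2 shares are not independent. The mean share over the 2 lists was 72.1% ± 5.73 (SD, n = 2). This SD comes only from the differing numbers of peaks, 47 and 42, and does not measure replicate spread in sharing.

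Shared peaks were wider than those of a single list, but a wider peak more readily meets the 1 bp overlap that defines sharing. In the 9 windows the median width of shared peaks was 627 bp in replicate 1 and 710.5 bp in replicate 2, and that of peaks of a single list was 234 and 199.5 bp. Over all shared regions the medians were 492 and 497 bp. Of the 32 regions, 14 were wider in replicate 1 and 18 in replicate 2. Among these 32, 2 were 1000 bp or wider in both lists, the Dusp6 region at 33.4 kb and the Fam53a region in the Fgfr3 window. Over all shared regions, 2.71% were that wide. Widths could differ within a region, as in the Fgfr1 regions with 713 and 288 bp and with 721 and 298 bp, where the peak of replicate 2 lay wholly inside that of replicate 1.

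**Figure D4:**
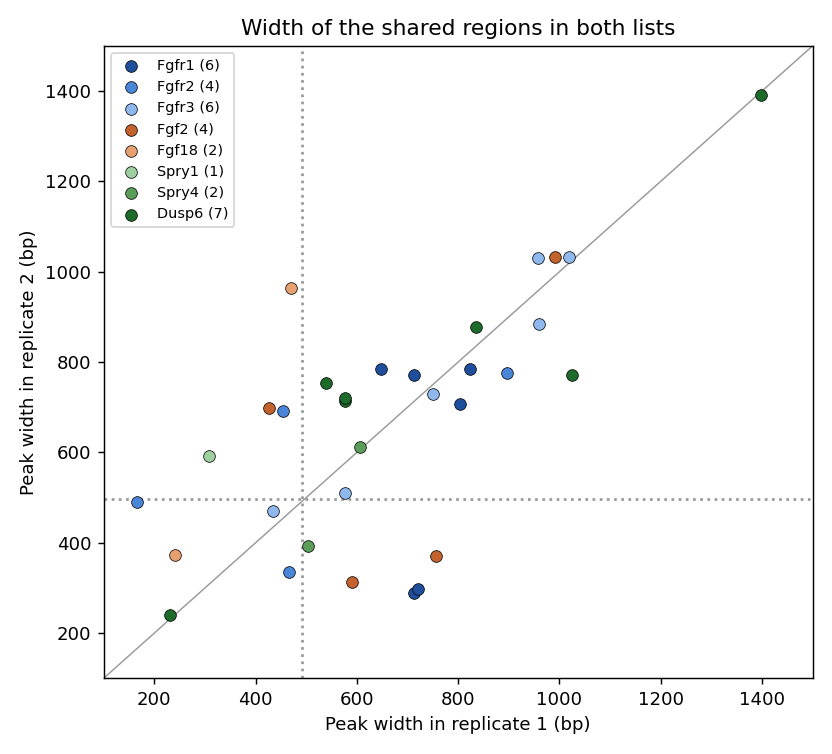
Width in bp of the peak of replicate 1 (horizontal) and of replicate 2 (vertical) for each of the 32 shared regions, coloured by gene, with the number of regions in brackets. The diagonal marks equal widths and dotted lines mark the medians of all shared regions, 492 and 497 bp. The Dusp6 region of 1399 and 1392 bp stands alone at the upper right.

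Other genes of the pathway were counted as a list of 63, and 52 of them had a shared region in their window, beside 77.7% of protein-coding genes. The median was 4 regions for these 63 genes and 3 for all protein-coding genes. All 19 signal transduction genes had a region, and 13 of them had one within 1 kb of an end, beside 33.3% of protein-coding genes. Map2k2, which encodes an ERK-activating kinase, had 10 regions, the adaptor gene Shc1 had 8 and Cbl, which encodes a ubiquitin ligase for receptors, had 7, as did 4 other genes of the group. Over 1 kb from every protein-coding gene end, Map2k2 had 2, Shc1 had 3 and Cbl had 1. Of 10 other feedback genes and targets, 9 had a region. Dusp5, a nuclear ERK phosphatase gene, and Etv4, an ETS factor gene induced by FGF signalling, had 6 each, and Spred2, a Sprouty relative, had 5. Away from such ends, Dusp5 had 4, Etv4 had 5 and Spred2 had 4. The exception, Spry3, which was named after its value was seen, is annotated at 101352 to 110912 of chromosome X, and no peak on X started below 6252822 in either list. That position may belong to an unplaced sequence, so its count of 0 may mean nothing.

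Receptor and cofactor genes had a region in 12 of 14 cases, Flrt3 and Gpc4 being the others, which were named after their values were seen. The heparan sulfate carriers Sdc4 and Gpc1 had 11 and 7 regions, and Flrt1, which encodes an FGF receptor partner, had 6. Of these, 8 at Sdc4, 5 at Gpc1 and 1 at Flrt1 lay over 1 kb from every protein-coding gene end. The other ligand group holds the 20 remaining Fgf genes by name, whether or not their products act as receptor ligands. These genes had a region in 12 of 20 windows (60.0%), beside 77.7% of protein-coding genes. They had one within 10 kb in 3 cases, beside 52.8%, and inside the gene in 0 cases, beside 41.4%. The 3 were Fgf7, Fgf11 and Fgf22, of which Fgf7 was named after its values were seen. Fgf22 had 8 regions in its window, and Fgf11 and Fgf21 had 6 each. All 6 of Fgf11, and all but 2 each of Fgf22 and Fgf21, were within 1 kb of a protein-coding gene end. Of these 3 genes, only Fgf11 had a region at its own end. None of these groups was tested against another.

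**Figure D5:**
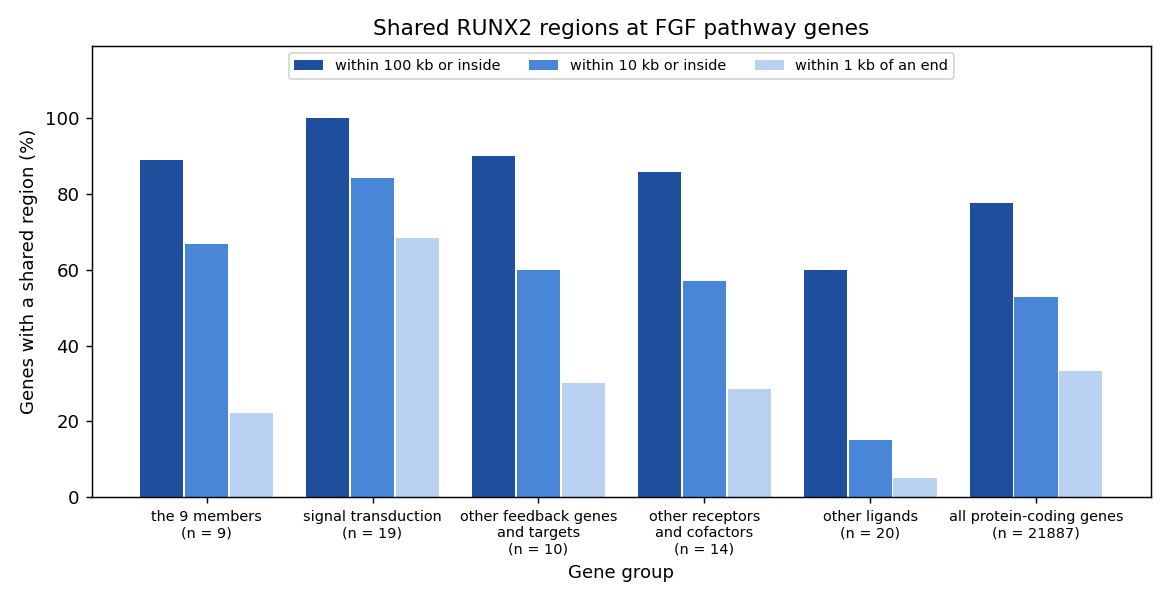
Percent of genes with at least 1 shared region within 100 kb or inside the gene (dark), within 10 kb or inside (middle) and within 1 kb of an end (light), for the 9 genes, 4 further pathway groups and all 21887 protein-coding genes. The other Fgf genes, plotted as other ligands, are lowest at each distance (60.0, 15.0 and 5.0%), and signal transduction genes are highest (100, 84.2 and 68.4%).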

How the data were processed

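The authors' deposited peak lists have no header and 5 columns, read from their values as a line number and the chromosome, start, end and width of each peak (1-based, both ends included), with a separate list for each replicate. Per the submitters' processing notes, fastp 0.19.6, Bowtie2 and deepTools were used on GRCm38 (mm10); what each did, how peaks were called and at what threshold, and whether a control was used is not given in the sources used here. Depth is unknown, and the number of libraries limits the precision.

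Gene spans came from a RefSeq table (GRCm38.p6), on chromosomes 1 to 19, X and Y, and start sites and promoter sequences from RefSeq windows of 300 bases of the same build. Of the coding genes, 126 are listed wholly below position 3000000 of their chromosome, Spry3 among them. Some of these positions may belong to unplaced sequences, where the lack of a region may mean nothing. All 126 genes were kept in the shares of all protein-coding genes. Peaks were intersected with Python 3.11.15 and pandas 2.3.3, and bedtools 2.31.1 gave the same shared peaks (minimum overlap 1 bp). A region was assigned to a gene with at least 1 base in its window, and distances run to the nearest base of the region. The code for overlaps was checked on simulated intervals. The 9 genes, the pathway list and the motifs were chosen with earlier results of these data known. From each group of the pathway list, the 3 genes with the most shared regions are named, with ties broken alphabetically, by which Cbl was taken ahead of 4 other genes with 7 regions each. No contrast between groups was possible, and no value was tested for significance. The alternatives were wider peaks, 50% reciprocal overlap, each list alone, other windows, nearest-gene assignment and, chosen after seeing the data, a gap of up to 200 bp.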

Additional observations from a re-analysis of the deposited data

How the results depend on the processing

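Of 39 values over 10 alternatives, 27 stayed close to those reported (counts within 1.5 times, the shared part within 1 SD) and 12 moved. The SD of the shared part does not measure replicate spread in sharing, so that limit is arbitrary. For counts of regions and genes in windows, the window moved the values most. The 32 shared regions became 8 with a window of 10 kb, 5 with the gene span alone and 15 when each region went only to the nearest protein-coding gene end. The 8 genes with a region became 4 with the gene span alone and lay between 6 and 9 otherwise. The 52 pathway genes became 33 with 10 kb, 23 with the gene span alone and 33 by nearest gene end. These follow from the construction, since fewer places count. Dusp6 had the most shared regions of the 9 genes with 100 kb. Within 10 kb it had 1 and Fgfr1 and Fgf2 had 2 each, and inside the gene it had 1 and Fgfr1 had 2. With replicate 1 alone Dusp6 had the most peaks, 11, but with replicate 2 alone Fgfr1 had 9 and Dusp6 8. With only peaks above the median width, the Dusp6 region of 230 and 239 bp was lost, and Dusp6 had no more regions than Fgfr3. The genes with a region at their own end, 2 as reported, were 1 with only peaks above the median width of each list, which leaves out Fgf18. The mean shared part of the peaks, 72.1%, was 83.8% with only the wider peaks, 60.9% with a reciprocal overlap of 50% and 62.5% in the gene span alone. With 1 list in place of shared regions, there were 42 to 47 places at the 9 genes, 9 genes with a peak, 2 to 4 genes with a peak at an end and 53 to 57 pathway genes. The 4 came with replicate 2 alone, without replicate 1, which adds Fgfr1 and Spry4. No paired analysis was possible because the series holds a single group. The lists hold no heights or depth, and weak signal could not be told from none.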

Other observations

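Several peaks of the 9 windows missed the overlap by little. In the Dusp6 window, a peak of 505 bp in replicate 1 (chromosome 10, 99172151 to 99172655) and a peak of 244 bp in replicate 2 (99171905 to 99172148), both inside Poc1b, had 2 bases between them. In the Spry2 window the closest pair had 146 bases between them. When peaks up to 200 bp apart were counted as shared, an alternative chosen after seeing the data, there were 34 regions, and all 9 genes had at least 1. Of the 25 peaks of a single list in these windows, 2 lay within 1 kb of the end of a gene of the 9, at Fgfr1 and Spry4, and both were in replicate 2.

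Over all promoter windows of protein-coding genes, the RUNX core TGCGGT was found in 11.1% of the 6586 windows under a shared region and in 5.79% of the others. TGTGGT was found in 11.9% of windows under a shared region and in 16.3% of the others, and the AP-1 motif TGANTCA in 4.37% of windows under a shared region and in 8.16% of the others. Median GC content was 62.0% in windows under a shared region and 53.0% in the others, and its part in these shares was not tested.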
